A study of Homo sapiens with 96 samples.

Results

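The GIMAP genes encode GTPases of immunity-associated proteins, and 7 of them (GIMAP1, GIMAP2, GIMAP4, GIMAP5, GIMAP6, GIMAP7 and GIMAP8) were followed through 96 RNA-seq libraries of human acute myeloid leukaemia (AML) cell lines. The 7 rows were picked by gene symbol from 60552 gene rows of the count table. The family itself was chosen on measured values, because GIMAP4 was higher with the LSD1 inhibitor than with vehicle at day 4 in 2 lines in earlier results of these data. The day 4 values of the inhibitor against vehicle are therefore given as a description, with no test.

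The 6 lines were HL60, Kasumi1 (which carries a RUNX1-RUNX1T1 fusion), MOLM13, MV411 and THP1 (which carry KMT2A fusions) and OCIAML3 (which carries an NPM1 mutation). All are established cultures of leukaemic cells, so each is 1 genetic background and holds no normal blood cells. Each line received 1 of 4 treatments for 2 or 4 days. DMSO was the vehicle, at 0.1%. The label 552A was read as GSK2879552 at 1 µM, an inhibitor of the histone demethylase LSD1, since no other arm of the protocol remained and the compound's name ends in the same digits. ATRA, all-trans retinoic acid, a ligand of the retinoic acid receptors, was given at 100 nM, and Combo was both drugs. Each of the 48 groups had 2 replicates. Nothing in the labels says that the replicates were grown apart, so a p-value within a line reflects only how far these libraries spread, and that spread may be technical.

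The depth was 12.82 M to 40.95 M counts per library, with a median of 22.88 M. Earlier results of these data had 5 libraries standing apart in the trend of their counts with gene GC content. At day 2 these were replicate 2 of 552A in THP1 and in OCIAML3. At day 4 they were replicate 2 of Combo in MV411, replicate 1 of 552A in MOLM13 and replicate 1 of Combo in Kasumi1. Their slopes were -0.99 to -0.5 on the log2 scale per 10 percentage points of GC, against -0.58 to 0.38 in the other 91 libraries, so the ranges overlap. Members whose calls ended without these 5 libraries are given with both values.

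GIMAP proteins share a GTP-binding domain of the AIG1 type, and several are anchored on intracellular membranes. They are best known from lymphocytes, where loss of GIMAP5 depletes T cells in rats and mice. GIMAP4 has been linked to the death of T cells, GIMAP7 stimulates the GTPase activity of GIMAP2, and GIMAP6 binds the autophagy protein GABARAPL2. Several members have been reported to bind proteins of the BCL2 family. LSD1 removes methyl groups from histone H3 lysine 4 and works in blood cells with the repressors GFI1 and GFI1B.

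The 7 genes lie within 299.4 kb of chromosome 7 (GRCh38 with GENCODE 29). In order along the chromosome they are GIMAP8 (ENSG00000171115, chr7:150450630-150479392), GIMAP7 (ENSG00000179144, chr7:150514830-150521073), GIMAP4 (ENSG00000133574, chr7:150567277-150573955), GIMAP6 (ENSG00000133561, chr7:150625375-150632648), GIMAP2 (ENSG00000106560, chr7:150685697-150693641), GIMAP1 (ENSG00000213203, chr7:150716557-150724284) and GIMAP5 (ENSG00000196329, chr7:150722253-150750033). GIMAP6 is on the minus strand and the others are on the plus strand. GIMAP1 and GIMAP5 overlap, and a GIMAP1-GIMAP5 readthrough gene shares their exons, so that 88.7% of the exon bases of GIMAP1 and 64.6% of those of GIMAP5 belong to no other gene on their strand. The readthrough row held 7 counts and the antisense pseudogene GIMAP3P within GIMAP5 held 11 counts over all libraries. No strand setting of the counting is given in the sources used here, and the split between GIMAP1 and GIMAP5 is uncertain.

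The sequence upstream of 4 members is shown. GIMAP4, the gene for which the family was chosen, and GIMAP7 hold the letters bound by GFI1, the partner of LSD1. GIMAP8 and GIMAP2 hold those bound by a myeloid factor. The members do not split into 2 types by these letters. GIMAP4 also holds the myeloid letters, outside the stretch shown, and GIMAP1, which is not shown, holds both. Each stretch shown is the part of the window from 250 bases before the RefSeq start that lies outside annotated exons of the same strand (GRCh38.p14, plus strand, 5′ to 3′). Capitals mark AATCAC, the core letters that GFI1 binds, or GAGGAA, the core letters that the myeloid factor PU.1 binds. The stretches are chr7:150567140-150567276 for GIMAP4, chr7:150450380-150450629 for GIMAP8, chr7:150514622-150514829 for GIMAP7 and chr7:150685456-150685696 for GIMAP2.
GIMAP4: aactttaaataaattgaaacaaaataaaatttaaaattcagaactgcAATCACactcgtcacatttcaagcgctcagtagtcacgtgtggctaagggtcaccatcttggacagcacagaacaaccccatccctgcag
GIMAP8: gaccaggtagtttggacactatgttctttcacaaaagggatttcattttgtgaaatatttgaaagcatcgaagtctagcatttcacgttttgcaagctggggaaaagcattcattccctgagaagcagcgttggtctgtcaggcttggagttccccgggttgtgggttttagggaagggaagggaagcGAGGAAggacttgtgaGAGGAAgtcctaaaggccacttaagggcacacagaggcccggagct
GIMAP7: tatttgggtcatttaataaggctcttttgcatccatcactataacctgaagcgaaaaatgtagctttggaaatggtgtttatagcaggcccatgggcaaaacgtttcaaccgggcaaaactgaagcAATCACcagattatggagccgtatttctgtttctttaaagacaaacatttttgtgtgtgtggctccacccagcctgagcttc
GIMAP2: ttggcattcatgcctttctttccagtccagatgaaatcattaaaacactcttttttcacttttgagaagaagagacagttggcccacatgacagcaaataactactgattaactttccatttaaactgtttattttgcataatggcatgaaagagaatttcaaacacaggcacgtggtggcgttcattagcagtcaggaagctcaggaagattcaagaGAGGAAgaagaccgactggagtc

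Motifs were searched on both strands of the 250 bases before each start. AATCAC began 203 bases before the start of GIMAP4 (position -203) and 124 bases before that of GIMAP7 (position -124), and its reverse complement began at -32 of GIMAP1. Of 34788 RefSeq promoters, 9.0% held this motif. GAGGAA began at -62 and -46 of GIMAP8, -32 of GIMAP2 and -11 of GIMAP1, and on the reverse strand at -35 of GIMAP4 and -27 of GIMAP1, against 23.6% of all promoters. No member held the RUNX letters TGTGGT (11% of promoters) or TGCGGT (5.8%) or the nuclear receptor half-site AGGTCA (12%), while GGTTCA (7.1%) began at -205 of GIMAP6. These matches describe the letters of this window and were not tested against the expression values.

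In untreated cells the members differed widely in level, and GIMAP6 and GIMAP2 were the main transcripts of the family. All 6 members with enough counts differed between the 6 lines in DMSO at day 2 (edgeR's quasi-likelihood F test with Benjamini-Hochberg adjustment), as did 82.6% of all genes tested. Levels are CPM, read counts set to a common library size with TMM factors, as mean ± SD of 2 libraries, and levels per length are RPKM over GENCODE exons. In bulk samples, fewer cells that express a gene and less RNA of it per cell cannot be told apart. Between neighbouring lines in the order of a member's levels, adjusted p-values come from tests of 2 lines. Such tests called 41.8% of genes between MV411 and THP1, 46.2% between Kasumi1 and MV411, 45.5% between Kasumi1 and MOLM13, 45.1% between HL60 and MOLM13, 54.7% between HL60 and OCIAML3, 50.3% between Kasumi1 and THP1, 49.7% between Kasumi1 and OCIAML3, 42.6% between MOLM13 and OCIAML3 and 45.8% between MOLM13 and THP1.

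GIMAP6, the partner of GABARAPL2, was highest in THP1 at 43.9 ± 1.6 CPM (SD, n = 2), or 11.2 RPKM. MV411 followed at 30.2 ± 1.07 CPM, Kasumi1 at 24.9 ± 2.48, MOLM13 at 21.2 ± 2.4, HL60 at 10.8 ± 4.98 and OCIAML3 at 0.851 ± 0.114, which was 0.218 RPKM. The lines from THP1 down to MOLM13 did not differ from their neighbours beyond their spread (adjusted p = 0.105, 0.355 and 0.496). HL60 was below MOLM13 (adjusted p = 0.00562) and OCIAML3 below HL60 (adjusted p = 5e-07), and the F test over lines gave an adjusted p of 8.45e-08. GIMAP2 followed another order. It was 23 ± 4.62 CPM in MV411 (11 RPKM), 21.7 ± 0.567 in THP1, 19.1 ± 1.08 in Kasumi1, 16.9 ± 1.41 in OCIAML3, 10.1 ± 1.84 in MOLM13 and 1.92 ± 0.166 in HL60 (0.914 RPKM). MV411, THP1, Kasumi1 and OCIAML3 did not separate from their neighbours (adjusted p = 0.69, 0.494 and 0.463), MOLM13 was below OCIAML3 (0.00965) and HL60 below MOLM13 (2.33e-06). OCIAML3 thus held GIMAP2 at a level among the upper lines while its GIMAP6 was the lowest.

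GIMAP8, the member with several GTP-binding domains, was 7.48 ± 0.188 CPM in THP1 and 7.19 ± 1.46 in MV411, which did not differ (adjusted p = 0.958). It was lower at each further step, at 1.62 ± 0.613 in Kasumi1 (0.000198), 0.56 ± 0.183 in OCIAML3 (0.00489), 0.187 ± 0.00383 in MOLM13 (0.0491) and 0.0237 ± 0.0335 in HL60 (0.046), where it rested on 1 count. GIMAP1 ran from 4.18 ± 0.486 CPM in MV411 to 0.245 ± 0.122 in HL60. Of its neighbouring lines, those that differed were THP1 at 3.03 ± 1.49 and MOLM13 at 1.08 ± 0.221 (adjusted p = 0.00941). GIMAP5 was 3.4 ± 0.0453 CPM in THP1, 2.53 ± 0.134 in MV411, 1.11 ± 0.248 in Kasumi1, 0.804 ± 0.113 in OCIAML3, 0.531 ± 0.055 in MOLM13 and 0 in HL60. Its step from MV411 to Kasumi1 passed the test (adjusted p = 0.00727), as did that from MOLM13 to HL60 (0.000141).

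GIMAP4 was near the limit of detection in untreated cells. THP1 held 28 counts in 2 libraries (0.704 ± 0.0731 CPM) and MV411 held 4 counts (0.0939 ± 0.0109), a difference with an adjusted p of 0.00954. HL60, Kasumi1, MOLM13 and OCIAML3 had 0 counts. GIMAP7 had 13 counts in all libraries together, all of them in Kasumi1, where the highest library held 4 counts, and it was tested in no line. Time in culture called no member, since DMSO at day 4 against day 2 gave 0 calls in 34 tests of a member in a line, with 4 at an unadjusted p under 0.05 and 0 by DESeq2, against 0.426% of all tests called.

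**Figure D1:**
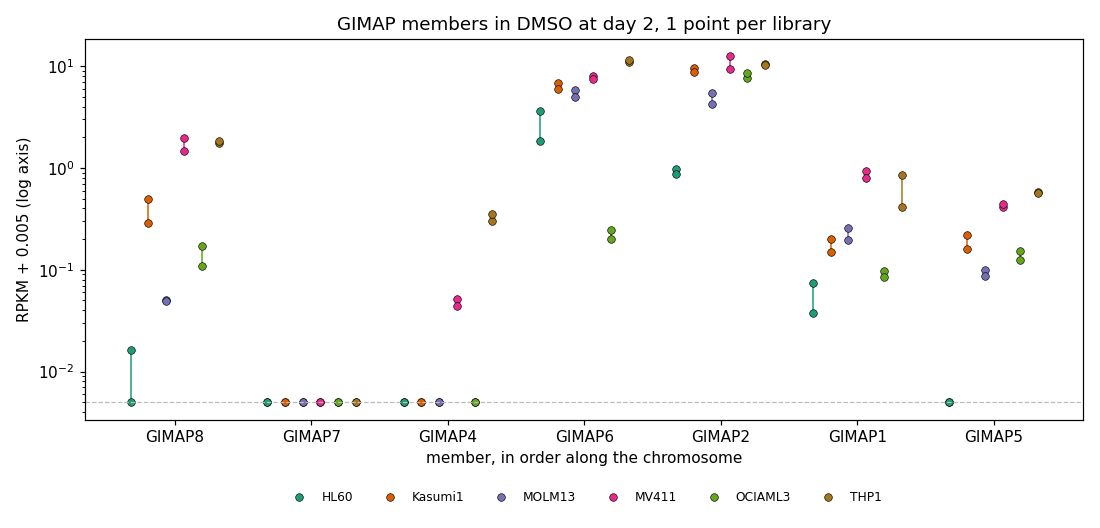
RPKM plus 0.005 on a log axis for each GIMAP member in DMSO at day 2, 1 point per library coloured by cell line, with the dashed line at 0 counts. GIMAP6 and GIMAP2 sit highest in most lines, GIMAP6 of OCIAML3 lies at 0.218 RPKM, and GIMAP4 is above 0 in THP1 and MV411 and at 0 in the other 4 lines.

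GIMAP4 rose with the LSD1 inhibitor at day 2 in HL60, Kasumi1, MOLM13, MV411 and THP1, from 0 or few counts. Outside THP1 it passed the filter on low counts only through treated libraries, and in OCIAML3 it did not pass, so nothing is read from the number of lines called. In HL60 it was 0 in both DMSO libraries and 12.1 and 17.6 CPM in the 552A libraries. In THP1 it was 0.652 and 0.756 CPM in DMSO and 28.5 and 35.9 CPM with 552A. The 2 groups did not overlap in either line. With 2 libraries a group this is frequent without a change, so here and below it is a description. Against 3 counts over the DMSO group, the limit that 0 counts allow, the level with 552A was at least 228-fold higher in HL60, and it was 45.7-fold higher in THP1 (log2 fold change 5.55 ± 0.27 SE). These floors and the intervals given for low counts cover counting error only.

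The other 3 lines reached lower levels with 552A at day 2. Kasumi1 had 3.25 and 2.81 CPM, at least 42.8-fold above its DMSO libraries at 0. MOLM13 had 5.38 and 4.08 CPM, at least 58.7-fold above 0. MV411 had 2.83 and 3.13 CPM, 31.7-fold above DMSO libraries that held 2 counts each (log2 fold change 4.92 ± 0.40). By edgeR's quasi-likelihood test the adjusted p was 5.3e-07 in THP1, 4.22e-06 in HL60, 4.69e-05 in MOLM13, 0.000164 in Kasumi1 and 0.000209 in MV411. Over all genes and lines, 2.26% of tests were called higher in this comparison. OCIAML3 stood apart from these lines, with 6 counts against 0 in DMSO (at least 3.23-fold), and over its 16 libraries the gene had 11 counts and was at 0 in 10, so it was not tested there.

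Across the 6 lines as replicates, GIMAP4 was the 1 member of 6 tested that was higher with 552A at day 2 (adjusted p = 0.000158), with 2 members at an unadjusted p under 0.05, against 2.61% of all genes called. The size of the rise differed between lines (adjusted p = 0.00205, F test over lines of the treatment effect, 1.3% of genes called). That difference did not pass without HL60 (adjusted p = 0.39) or without THP1 (0.121).

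At day 4, the contrast that chose the family, GIMAP4 with 552A was 38 and 46 CPM in THP1, 5.26 and 6.88 in HL60, 4.42 and 4.9 in MOLM13, 5.86 and 4.27 in MV411 and 4.12 and 4.22 in Kasumi1. The DMSO libraries held 1 count in HL60, 0 in Kasumi1, MOLM13 and MV411, and 1.17 and 0.941 CPM in THP1. The ratio of group means was 39.9 in THP1, 328 in HL60 (counting interval 53.4 to 11900, 95%), at least 86.2 in MV411, at least 62.8 in Kasumi1 and at least 53 in MOLM13. OCIAML3 was under the floor in both groups.

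ATRA alone raised GIMAP4 in 1 line at day 2 and in 3 lines at day 4. In THP1 it was 3.83 and 3.94 CPM at day 2, 5.52-fold above DMSO (log2 fold change 2.44 ± 0.26, adjusted p = 6.98e-05), and 8.84 and 11.4 CPM at day 4, 9.61-fold above DMSO (3.21 ± 0.25, adjusted p = 4.42e-06). In HL60 it was 0.662 and 0.798 CPM at day 4 against 1 DMSO count, a ratio of 39.5 with a counting interval of 5.91 to 1430 (adjusted p = 0.000139). MOLM13 at day 4 had 0.218 and 0.145 CPM, at least 2.07-fold above 0 (adjusted p = 0.0355), a call that did not pass without any 1 of its 4 libraries (adjusted p = 0.0573 to 0.247) or by DESeq2 (0.0732). Kasumi1 with ATRA held 1 count in 4 libraries and MV411 held 2. The day 4 comparison shares its DMSO libraries with the contrast that chose the family. Over all genes and lines, 11.3% of tests were called at day 2 and 15.7% at day 4.

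Across lines, GIMAP4 was higher with ATRA at day 4 (adjusted p = 0.0157, 7.92% of genes called) but this did not pass without HL60 (adjusted p = 0.077). This day 4 test, too, shares its DMSO libraries with the contrast that chose the family, so it is not independent of that choice. At day 2 with ATRA 0 of 6 members passed by edgeR (2 at an unadjusted p under 0.05, 1 by DESeq2, 10.9% of genes called).

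Adding the inhibitor to ATRA gave the highest GIMAP4 levels of HL60, MOLM13 and THP1. In HL60 it was 33.9 and 35.9 CPM in Combo at day 2 against 1 count in each ATRA library, a ratio of 855 (counting interval 236 to 7060, adjusted p = 1.75e-06), and 11 and 12.2 CPM at day 4, 15.9-fold above ATRA (log2 fold change 4.00 ± 0.34, adjusted p = 0.000317). In THP1 it was 40.4 and 40 CPM at day 2, 10.3-fold above ATRA (3.34 ± 0.22, adjusted p = 9.76e-06), and 62.2 and 79.7 CPM at day 4, 7.01-fold above ATRA (2.81 ± 0.22, adjusted p = 6.67e-06). In MOLM13 it was 6.15 and 7.34 CPM at day 2 and 12.4 and 13.1 CPM at day 4, 58.1-fold and 70.1-fold above ATRA (adjusted p = 2.35e-05 and 7.96e-06). In each of these lines and days the Combo libraries lay above the ATRA libraries without overlap.

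Kasumi1 and MV411 also rose from ATRA to Combo, to levels close to those of 552A alone. Kasumi1 Combo libraries had 2.91 and 3.65 CPM at day 2, at least 51.4-fold above ATRA (adjusted p = 0.000167), and 4.43 and 4.32 CPM at day 4, a ratio of 150 over 1 ATRA count (counting interval 29.5 to 6610, adjusted p = 9.47e-05). MV411 had 3.48 and 4.44 CPM at day 2, at least 67.6-fold above ATRA (adjusted p = 1.42e-05), and 3.31 and 3.13 CPM at day 4, a ratio of 74 over 2 ATRA counts (20.4 to 629, adjusted p = 1.53e-05). In these comparisons 5.15% of all tests were called at day 2 and 8.42% at day 4, and the number of lines with a GIMAP4 call again rests on the filter. Across lines, GIMAP4 was the 1 member called, with an adjusted p of 0.000462 at day 2 (0.934% of genes called) and 0.00868 at day 4 (0.257% of genes called). The day 4 call across lines did not pass without MOLM13 (adjusted p = 0.0725).

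The calls of GIMAP4 for 552A against DMSO at day 2 and for Combo against ATRA at both days, in each of these 5 lines, held in all 23 alternatives run for each, among them leaving out each library and the 5 libraries named above. These alternatives are not all separate. HL60 holds none of the 5 libraries named above, so there leaving them out repeats the main fit. In the other lines it repeats leaving out a single library. Outside THP1 GIMAP4 had passed the filter on low counts only through treated libraries, so nothing is read from the number of alternatives in which its call held.

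ATRA added to the inhibitor raised GIMAP4 in 3 lines, in comparisons where 12.9% of all tests were called at day 2 and 14.7% at day 4. Combo was above 552A in HL60 at both days (log2 fold change 1.24 ± 0.28, adjusted p = 0.00577 at day 2, and 0.95 ± 0.29, adjusted p = 0.0276 at day 4), in MOLM13 at day 4 (1.5 ± 0.28, adjusted p = 0.00502) and in THP1 at day 4 (0.73 ± 0.2, adjusted p = 0.0197). The HL60 day 2 call did not pass without replicate 1 of 552A (adjusted p = 0.0765), and the HL60 day 4 call did not pass without any 1 of its 4 libraries (0.0604 to 0.195) or with no filter (0.0639). In THP1 the day 4 call did not pass without replicate 1 of 552A (0.144) or replicate 2 of Combo (0.169). Kasumi1 (0.16 ± 0.3 at day 2, 0.08 ± 0.3 at day 4) and MV411 (0.37 ± 0.26 and -0.62 ± 0.26) did not pass. The day 4 comparison shares its 552A libraries with the contrast that chose the family. Across lines 0 of 6 members passed at day 2 (0 at an unadjusted p under 0.05, 0 by DESeq2, 3.06% of genes called) or at day 4 (0 and 0, 8.4% of genes called).

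**Figure D2:**
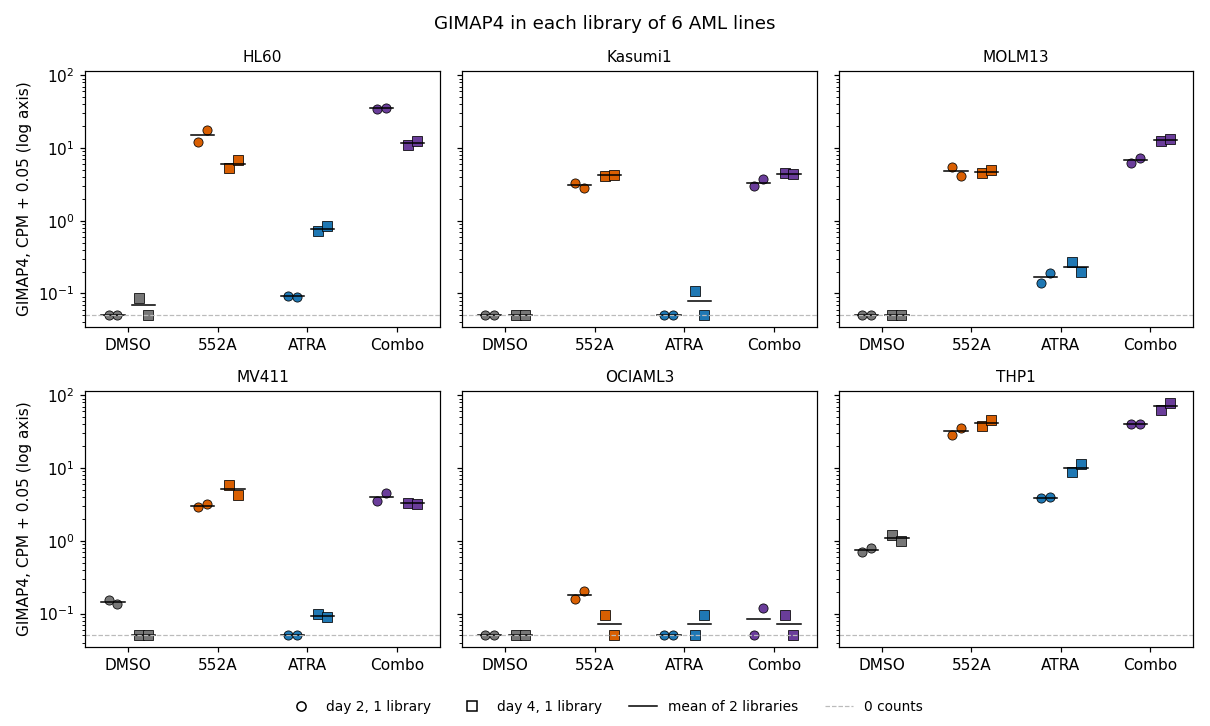
GIMAP4 in every library, as CPM plus 0.05 on a log axis, with a panel for each cell line and the 4 treatments at days 2 and 4 side by side. DMSO libraries sit at or near 0 counts except in THP1, 552A and Combo libraries lie above DMSO and ATRA in 5 lines, and OCIAML3 stays at or near 0 throughout.

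GIMAP8 rose with ATRA in HL60, MOLM13, THP1 and, at day 2, MV411, and with the inhibitor in Kasumi1 and THP1, and the F test over lines gave an adjusted p of 1.94e-07 for ATRA at day 4 and 0.00638 for 552A at day 2. The latter did not pass without Kasumi1 (0.643) or OCIAML3 (0.0572). In HL60 it was almost absent without ATRA, with 3 counts in 4 DMSO libraries, and rose with ATRA to 81 and 115 counts at day 4 (2.82 and 5.73 CPM), 93.9-fold above DMSO (counting interval 26.9 to 819, adjusted p = 0.000516). The Combo libraries of day 4 held 4 and 2 counts (0.133 and 0.0906 CPM), 38.3-fold below ATRA (log2 fold change -5.14 ± 0.86, adjusted p = 0.0137). At day 2 the ATRA libraries held 10 and 4 counts and the Combo libraries 0, at least 4.51-fold lower, which did not pass (adjusted p = 0.0911). The ATRA libraries of HL60 thus lay above every other HL60 library at day 4, while in the same Combo libraries GIMAP4 lay above ATRA. GIMAP8 passed the filter on low counts in HL60 only through the ATRA libraries of day 4. Both day 4 calls test that group, so they add no separate support to these values. The day 4 fall did not pass without replicate 2 of ATRA (adjusted p = 0.0802) or without replicate 1 or 2 of Combo (0.158 and 0.159).

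In Kasumi1 GIMAP8 rose with the inhibitor. It was 1.19 and 2.06 CPM in DMSO and 7.1 and 6.61 CPM with 552A at day 2 (log2 fold change 2.03 ± 0.31, adjusted p = 0.0025), a call that did not pass without replicate 1 of DMSO (0.0619). At day 4 the 552A level was 4.86-fold that of DMSO, as a description. With ATRA it was 1.54 and 1.36 CPM at day 2 and 1.34 and 1.98 CPM at day 4, within the range of DMSO. Combo was above ATRA at day 2 (1.93 ± 0.31, adjusted p = 0.00401) and at day 4 (1.69 ± 0.31, adjusted p = 0.00607). The day 2 call did not pass without replicate 1 (0.0631) or 2 (0.0786) of ATRA, and the day 4 call did not pass without replicate 1 of ATRA (0.0716).

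In MOLM13 GIMAP8 rose with ATRA, to 1.11 and 1.32 CPM at day 2 (log2 fold change 2.62 ± 0.54, adjusted p = 0.0173) and to 3.93 and 3.43 CPM at day 4, against 0.226 and 0.73 CPM in DMSO (2.93 ± 0.45, adjusted p = 0.00128). The day 2 call did not pass without any 1 of its 4 libraries (0.0538 to 0.163). Combo was above 552A at day 2 (2.86 ± 0.56, adjusted p = 0.0104) and at day 4 (5.02 ± 0.52, adjusted p = 4.11e-05), and the day 2 call did not pass without replicate 1 (0.0653) or 2 (0.158) of 552A or replicate 1 of Combo (0.0593). With 552A alone at day 4 the level was 0.256-fold that of DMSO, from 6 counts against 16. GIMAP8 passed the filter on low counts in MOLM13 only through its ATRA and Combo libraries, so the calls here add no separate support.

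In THP1, where the gene was highest, both drugs raised GIMAP8. DMSO libraries held 7.35 and 7.62 CPM at day 2 and 8.25 and 7.41 at day 4. ATRA libraries held 23.7 and 23.2 CPM at day 2 (log2 fold change 1.63 ± 0.16, adjusted p = 5.15e-05) and 32 and 31.9 at day 4 (1.98 ± 0.17, adjusted p = 8.25e-06), while 552A at day 2 held 11.5 and 13 CPM (0.75 ± 0.16, adjusted p = 0.0171). Combo reached 38.9 and 33.9 CPM at day 2 and 55.3 and 54.9 CPM at day 4, the highest GIMAP8 values of the 96 libraries. Combo was above ATRA at day 2 (0.61 on the log2 scale, adjusted p = 0.0277) and day 4 (0.79, adjusted p = 0.00493) and above 552A at both days (1.48, adjusted p = 5.98e-05, and 1.63, adjusted p = 1.7e-05). The 552A call at day 2 did not pass without replicate 1 (0.145) or 2 (0.104) of DMSO, without replicate 2 of 552A, one of the 5 libraries standing apart (0.61 on the log2 scale, 0.085), or with no filter on low counts (0.0986). The Combo call over ATRA at day 2 did not pass without any 1 of its 4 libraries (0.0767 to 0.194) or with no filter (0.132).

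MV411 had GIMAP8 at 14.1 and 16 CPM in DMSO at day 4. Its rise with ATRA at day 2 (log2 fold change 0.94 ± 0.26, adjusted p = 0.0481) did not pass without any 1 of 8 of the line's 16 libraries (0.0649 to 0.314), with DESeq2's size factors (0.0537) or with no filter (0.056). At day 4 Combo libraries held 8.59 and 10.3 CPM against 14.5 and 22.2 with ATRA (-0.98 ± 0.26, adjusted p = 0.0198). That fall did not pass without replicate 2 of ATRA (0.191) or without replicate 2 of Combo, one of the 5 libraries standing apart (-1.14, 0.0518). In OCIAML3 GIMAP8 ranged from 0.0548 to 0.916 CPM and passed no test.

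**Figure D3:**
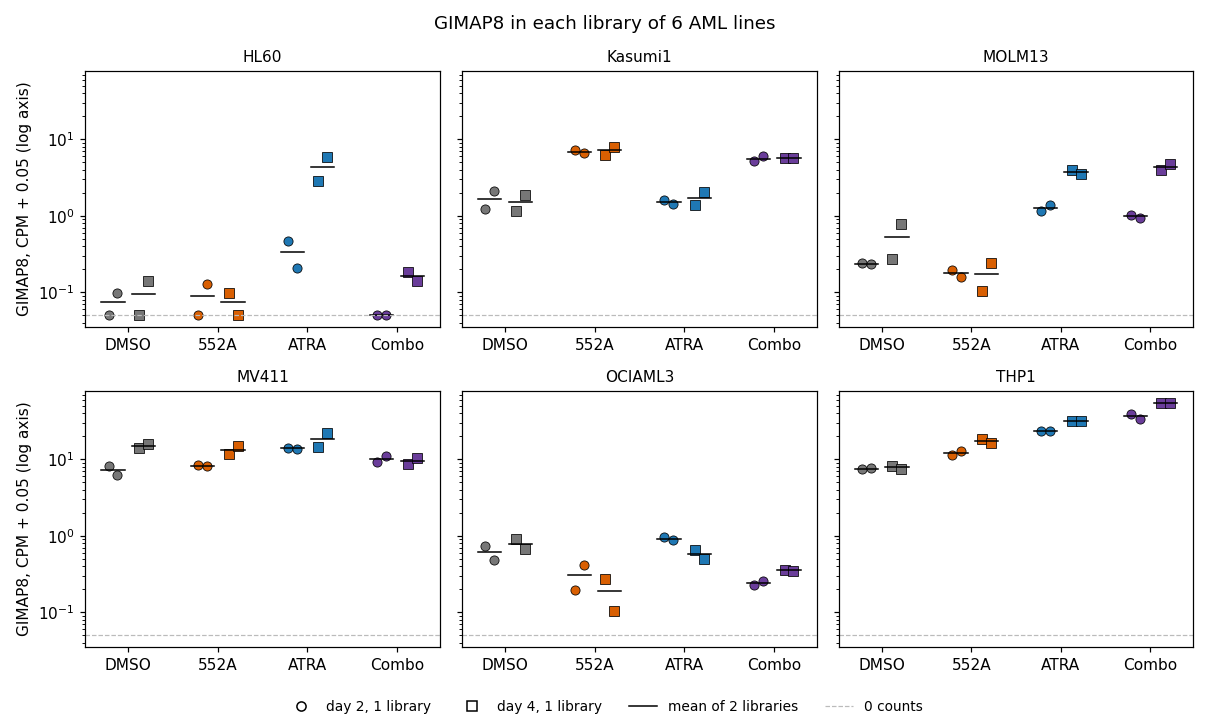
GIMAP8 in every library, as CPM plus 0.05 on a log axis, with a panel for each cell line and the 4 treatments at days 2 and 4 side by side. HL60 is high in the ATRA libraries of day 4, at 2.82 and 5.73 CPM, Kasumi1 in the 552A and Combo libraries, MOLM13 in the ATRA and Combo libraries, and THP1 is highest in Combo.

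GIMAP6 and GIMAP2 rose with ATRA in HL60 at both days. GIMAP6 was 7.91 and 5.24 CPM in DMSO and 50.4 and 40.7 CPM with ATRA at day 4, 6.93-fold higher (log2 fold change 2.76 ± 0.33, adjusted p = 6.07e-05), and 3.08-fold higher at day 2 (1.61 ± 0.32, adjusted p = 0.00234). GIMAP2 was 2.51 and 2.23 CPM in DMSO and 9.86 and 15 CPM with ATRA at day 4, 5.24-fold higher (2.35 ± 0.29, adjusted p = 8.19e-05), and 4.94-fold higher at day 2 (2.29 ± 0.29, adjusted p = 0.000126). The ATRA and DMSO libraries of HL60 did not overlap for either gene, as a description. With 552A alone at day 4 HL60 held 10.7 and 8.39 CPM of GIMAP6 and 4.78 and 5.15 CPM of GIMAP2.

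Beyond HL60, ATRA raised GIMAP6 at day 4 in MV411, to 50.3 and 48.4 CPM from 23.8 and 23.7 (1.05 ± 0.18, adjusted p = 0.000829), and in MOLM13, to 35 and 34.8 CPM from 20.4 and 18.6 (0.83 ± 0.18, adjusted p = 0.0119). The MOLM13 call did not pass without any 1 of its 4 libraries (0.0691 to 0.136). Combo lay below ATRA in MV411 at day 4, at 35.2 and 30 CPM (-0.62 ± 0.18, adjusted p = 0.0273), and above it in THP1, at 97.9 and 86.5 against 64.9 and 63.4 CPM (0.53 ± 0.16, adjusted p = 0.0443). The MV411 call did not pass without replicate 1 (0.102) or 2 (0.0962) of ATRA, without replicate 2 of Combo, one of the 5 libraries standing apart (-0.53, 0.166), or with no filter (0.0953). The THP1 call did not pass without any 1 of 12 of the line's 16 libraries (0.0697 to 0.222) or with no filter (0.226). OCIAML3 kept GIMAP6 low in every library, from 0.179 to 1.59 CPM, with 272 counts in all.

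ATRA added to the inhibitor raised GIMAP6 in HL60 at day 2 (log2 fold change 1.17, adjusted p = 0.0113) and day 4 (1.72, adjusted p = 0.00149), in THP1 at day 2 (0.6, adjusted p = 0.0171) and day 4 (0.69, adjusted p = 0.00723), and in MOLM13 at day 2 (0.8, adjusted p = 0.024). The HL60 day 2 call did not pass without replicate 1 of 552A (0.085) or replicate 2 of Combo (0.0604). The THP1 day 2 call did not pass without replicate 2 of 552A, one of the 5 libraries standing apart (0.6, 0.053), or replicate 1 of Combo (0.174), and the MOLM13 call did not pass without any 1 of 8 of the line's 16 libraries (0.0504 to 0.19) or with no filter (0.104). GIMAP2 was above 552A in Combo in HL60 at day 2 (0.96, adjusted p = 0.0186) and in THP1 at day 4 (0.73, adjusted p = 0.00739). The HL60 call did not pass without replicate 2 of 552A (0.167) or replicate 1 of Combo (0.0976) or with no filter (0.112), and the THP1 call did not pass without replicate 2 of Combo (0.0635).

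The inhibitor raised GIMAP2 in Kasumi1, from 19.9 and 18.4 CPM in DMSO to 44.1 and 31.1 CPM with 552A at day 2 (log2 fold change 0.92 ± 0.19, adjusted p = 0.0154). That call did not pass without replicate 1 of 552A (0.138) or replicate 1 (0.138) or 2 (0.144) of DMSO. At day 4 Combo was above ATRA in Kasumi1, at 45 and 41.9 against 28.6 and 22 CPM (0.72 ± 0.19, adjusted p = 0.0356), and in THP1, at 46.4 and 52.5 against 30.6 and 34.3 CPM (0.62 ± 0.17, adjusted p = 0.0293). The Kasumi1 call did not pass without any 1 of 12 of the line's 16 libraries (0.0523 to 0.315), without the 5 libraries standing apart (0.71, 0.0706) or with no filter (0.0538). The THP1 call did not pass without any 1 of 12 of the line's 16 libraries (0.053 to 0.197) or with no filter (0.176). In both lines the Combo and ATRA libraries did not overlap, as a description.

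GIMAP1 rose with the inhibitor in HL60 and Kasumi1. In HL60 it was 0.16 and 0.331 CPM in DMSO at day 2, 1.21 and 2.38 CPM with 552A (log2 fold change 2.87 ± 0.54, adjusted p = 0.0205) and 1.08 and 1.28 CPM with ATRA (2.26 ± 0.55, adjusted p = 0.00828), and with ATRA at day 4 it was 3.52 and 2.84 CPM against 0.85 and 0.956 in DMSO (1.79 ± 0.46, adjusted p = 0.0113). The 552A call did not pass without replicate 2 of 552A (0.208) or replicate 1 (0.383) or 2 (0.0847) of DMSO. The ATRA call did not pass at day 2 without replicate 1 of DMSO (0.106), nor at day 4 without replicate 1 (0.0877) or 2 (0.0605) of DMSO. In Kasumi1 it was 0.952 and 0.701 CPM in DMSO and 2.41 and 2.51 CPM with 552A at day 2 (1.53 ± 0.34, adjusted p = 0.0263), which did not pass without any 1 of its 4 libraries (0.0966 to 0.255). At day 4, as a description, the 552A level was 4.87-fold that of DMSO in Kasumi1 and 3.47-fold in THP1. It was 1.71-fold in MOLM13, 1.53-fold in HL60, 1.29-fold in MV411 and 0.757-fold in OCIAML3.

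Combo was above ATRA for GIMAP1 in Kasumi1 and THP1. In Kasumi1 the log2 fold change was 2.13 ± 0.37 at day 2 (adjusted p = 0.00575) and 1.79 ± 0.36 at day 4 (adjusted p = 0.00989). In THP1 Combo libraries held 18.5 and 12.5 CPM at day 2 against 5.02 and 4.63 with ATRA (1.66 ± 0.34, adjusted p = 0.00823), and 24.7 and 16.5 CPM at day 4 against 8.2 and 7.18 (1.42 ± 0.33, adjusted p = 0.0123). The highest GIMAP1 value of the 96 libraries, 24.7 CPM, was that of a THP1 Combo library of day 4. Combo was also above 552A in THP1 at day 2 (1.06 ± 0.33, adjusted p = 0.0379). The Kasumi1 calls did not pass at day 2 without replicate 1 of ATRA (0.132) or of Combo (0.0819), nor at day 4 without replicate 2 of ATRA (0.125). The THP1 calls against ATRA did not pass without replicate 1 or 2 of ATRA or replicate 1 of Combo at day 2 (0.0694, 0.0754 and 0.0739) or day 4 (0.0564, 0.0989 and 0.0882). The call against 552A did not pass without replicate 2 of 552A, one of the 5 libraries standing apart (0.83, 0.177), replicate 1 or 2 of ATRA (0.0505 and 0.0502) or replicate 1 of Combo (0.231).

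**Figure D4:**
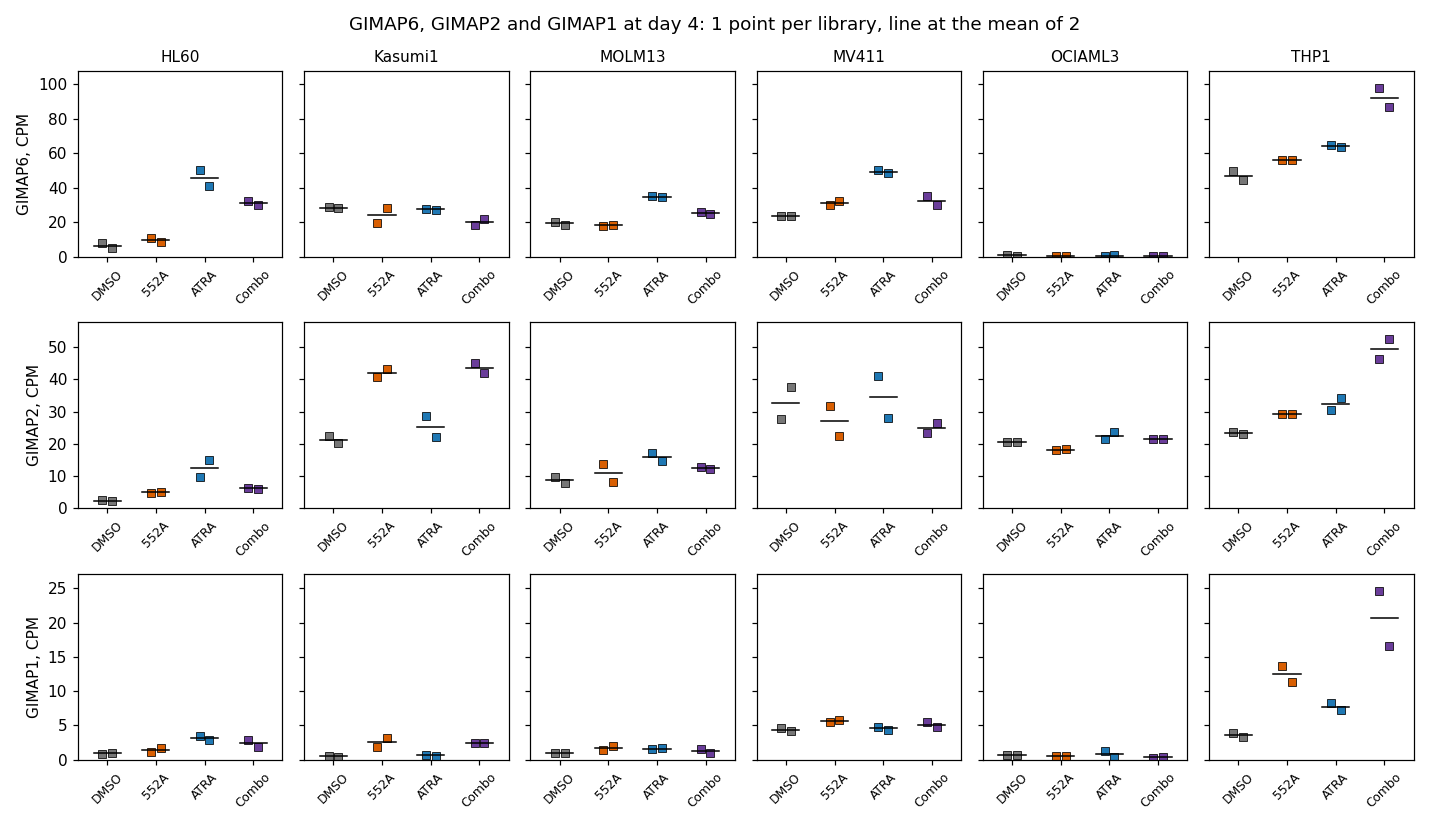
CPM of GIMAP6, GIMAP2 and GIMAP1 at day 4 in 6 cell lines (columns) and 4 treatments, 1 point per library with a line at the mean of 2. In HL60 the ATRA libraries are highest for GIMAP6 and GIMAP2, in Kasumi1 the 552A and Combo libraries are highest for GIMAP2 and GIMAP1, and in THP1 the Combo libraries are highest for all 3 genes.

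GIMAP5, the member whose loss depletes T cells in rodents, passed no test of a drug in any line. It ranged from 2.94 to 5.14 CPM in THP1, 1.6 to 3.22 in MV411, 0.861 to 1.61 in Kasumi1, 0.725 to 1.44 in OCIAML3 and 0.393 to 1.04 in MOLM13. HL60 held 3 counts in 16 libraries and was not tested. GIMAP7 was likewise not tested, and its 3 counts with 552A at day 4 in Kasumi1 against 0 in DMSO are at the floor. The fold changes of GIMAP5 had standard errors of 0.24 or more on the log2 scale, and the part of its low counts in them was not tested.

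Counted over the family, 34 of 42 combinations of a member and a line held enough counts for a test. With 552A at day 2, 10 of 34 were higher and 0 lower (16 at an unadjusted p under 0.05, 12 called by DESeq2), against 2.8% of all tests called. GIMAP4 gave 5 of these 10, 4 of them in lines where it passed the filter only through treated libraries. The members' median log2 fold change was 0.38, against 0 over all genes. With ATRA 7 were higher at day 2 (median 0.45 against -0.01), where 11.3% of all tests were called and 6.45% were called higher. At day 4, 11 were higher (0.52 against -0.01), where 15.7% were called and 8.52% were called higher. At an unadjusted p under 0.05 there were 14 and 15, and DESeq2 called 8 and 12. None was lower at either day by either tool. GIMAP4 was among the higher members in THP1 at both days and in HL60 and MOLM13 at day 4. HL60 gave 5 of the 11 at day 4, a line in which 16.2% of genes were called higher. In lines other than THP1, GIMAP4 passed the filter on low counts only through treated libraries, and so did GIMAP8 in HL60 and MOLM13. Nothing is read from their part in these counts.

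Combo against ATRA gave 9 higher and 0 lower at day 2 (15 at an unadjusted p under 0.05), and 12 higher and 3 lower at day 4 (20). Of all tests 5.15% were called at day 2 and 8.42% at day 4, and 3.25% and 4.84% were called higher. DESeq2 called 13 and 16. GIMAP4, the gene for which the family was chosen, was among the higher calls at both days in HL60, Kasumi1, MOLM13, MV411 and THP1. Outside THP1 it passed the filter on low counts only through treated libraries, as did GIMAP8 in HL60 and MOLM13. The members' medians were 0.1 (0 over all genes) and -0.05 (-0.02). Offsets for gene GC content and length moved the day 2 split to 13 higher and 2 lower and the day 4 split to 12 higher and 6 lower, while the day 2 split was 9 higher and 3 lower with no filter and 11 higher and 2 lower by DESeq2. The 3 lower calls of day 4 were GIMAP8 in HL60 and MV411 and GIMAP6 in MV411. Combo against 552A gave 8 higher and 0 lower at each day (13 and 11 at an unadjusted p under 0.05, 8 and 8 by DESeq2), with medians of 0.24 (0 over all genes) and 0.19 (0.01). Of all tests 12.9% and 14.7% were called, and 6.61% and 7.73% were called higher. GIMAP4 was among the members higher in Combo than 552A in HL60 at both days and in MOLM13 and THP1 at day 4. OCIAML3 gave no call for any member in any of these comparisons.

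**Figure D5:**
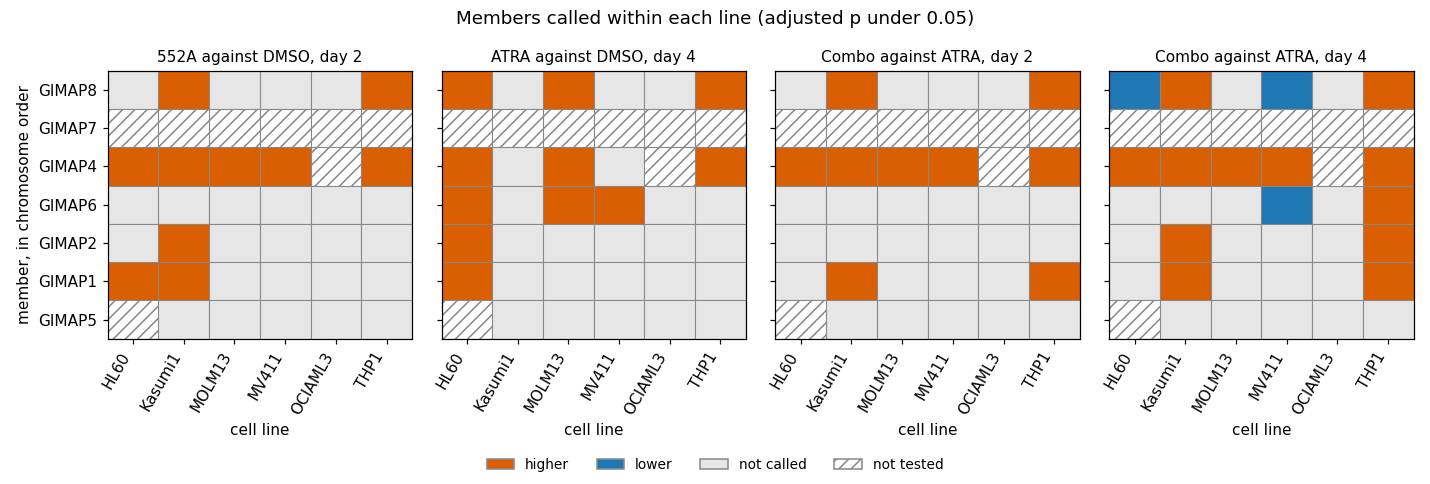
Calls of each member (rows, in chromosome order) in each cell line (columns) for 4 comparisons, coloured by direction at an adjusted p under 0.05, with untested combinations hatched. GIMAP4 is called higher in 5 lines for 552A against DMSO at day 2 and for Combo against ATRA at both days, while the ATRA panel holds 11 calls, 5 of them in HL60. Outside THP1 GIMAP4 passed the filter on low counts only through treated libraries, as did GIMAP8 in HL60 and MOLM13.

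The response to ATRA at day 4 differed between lines for 4 of 6 members tested, in a comparison where 31.4% of genes were called, and the response to Combo against ATRA differed for 5 of 6, where 18.5% were called. Each line was then set against the mean of the other 5, a contrast chosen after the data had been seen. With ATRA at day 4, HL60 was above the mean of the others by 5.52 ± 0.68 on the log2 scale for GIMAP8 (adjusted p = 4.02e-07, from 2 counts in its DMSO libraries), 2.38 ± 0.26 for GIMAP6 (3.4e-08), 2.02 ± 0.26 for GIMAP2 (6.63e-07) and 1.34 ± 0.36 for GIMAP1 (0.00929), where 17.2% of genes were called. For Combo against ATRA at day 4, HL60 was below the others by -5.36 ± 0.57 for GIMAP8 (3.51e-07) and -1.1 ± 0.25 for GIMAP2 (0.00514), where 5.68% of genes were called.

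Kasumi1 differed in the other direction for Combo against ATRA at day 4, by 2.92 ± 0.45 for GIMAP8 (adjusted p = 9.42e-05), 1.95 for GIMAP1 (0.00266) and 1.03 for GIMAP2 (0.013), where 2.36% of genes were called. THP1 was above the others by 1.11 ± 0.25 for GIMAP6 (0.00331) and 0.83 for GIMAP2 (0.0289) and below them for GIMAP4 (0.0353), where 6.92% were called. The GIMAP4 contrast is of fold changes from unlike starts. The ATRA libraries of day 4 held 506 counts in THP1, 35 in HL60, 8 in MOLM13, 2 in MV411 and 1 each in Kasumi1 and OCIAML3. The Combo level of day 4 was highest in THP1, at 70.9 CPM.

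The genes on either side of the cluster were counted as a list of 18, of which 17 were tested. With 552A at day 2, 2 of 80 tests in a line were higher and 0 lower (median log2 fold change -0.25, against 0 over all genes). That share, 2.5%, was near the 2.26% of all tests called higher. The genes were AOC1, an amine oxidase gene, in HL60 (log2 fold change 3.59) and TMEM176B, a membrane protein gene next to GIMAP5, in THP1 (1.06). Combo against ATRA gave 4 higher at day 2, where 3.25% of all tests were called higher. They were AOC1 in HL60 (3.79) and THP1 (1.94) and TMEM176A and TMEM176B in THP1 (2.00 and 2.05). With ATRA at day 4, where 8.52% of all tests were called higher and 7.22% lower, TMEM176A and TMEM176B rose in MOLM13 (4.57 and 3.85). Lower calls came in 4 tests of a neighbour in a line, among them the potassium channel gene KCNH2 in HL60 (-3.95) and THP1 (-1.54). Across lines 0 of 17 neighbours passed for 552A at day 2 (6 at an unadjusted p under 0.05) or for Combo against ATRA at day 2 (5) or day 4 (1). With ATRA at day 2, KCNH2 (log2 fold change -2.5, adjusted p = 0.0138), AGAP3 (-0.92, 0.0412) and ABCB8 (-0.61, 0.0466) were lower across lines. ATG9B was lower across lines in Combo than in 552A at day 4 (-1.13, 0.0373). Of all genes, 5.18% and 3.84% were called lower in these comparisons.

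Of 11 genes for reported partners of GIMAP proteins, BCL2, the anti-apoptotic gene, fell with ATRA in 5 lines. It was lower at day 4 in HL60 (log2 fold change -4.98), OCIAML3 (-4.15), MV411 (-2.49), MOLM13 (-2.06) and THP1 (-1.44), and across lines (-2.26 ± 0.61, adjusted p = 0.0303). In all, 11 of 66 tests of these partners in a line were higher with ATRA at day 4 and 5 were lower, these 5 being BCL2. The higher calls, which are not named here, were thus the larger group. Of all tests 8.52% were called higher and 7.22% lower. The partners' median was 0.18, against -0.01 over all genes, and 24.2% were called against 15.7% of all tests. With 552A at day 2, 3 of 66 tests were higher and 1 lower (median -0.06, against 0), or 6.06% called against 2.8% of all tests. The higher ones were GABARAP, an autophagy gene, in THP1 (1.74) and MV411 (1.32) and GABARAPL2, the partner of GIMAP6, in MV411 (1.37), and the lower one was BCL2 in THP1 (-0.61). In MV411 GABARAPL2 was also higher in Combo than in ATRA, by 1.9 at day 2 and 2.06 at day 4, while GIMAP6 was lower there at day 4.

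The genes whose mean levels over the 48 groups ran most like those of GIMAP4 were ranked among 24397 genes by Pearson's r of log2 levels. LY96, which encodes the co-receptor MD-2 of the endotoxin receptor TLR4, came first (r = 0.904, Spearman's rho = 0.891). HECA (0.821), AC119428.2 (0.818), AC087672.2 (0.806) and the actin-binding protein gene CORO1C (0.805) followed. The points share lines, treatments and libraries, so these values are a description. Over both days LY96 averaged 0.391 CPM in DMSO and 19.7 CPM with 552A in MOLM13, and 0.027 and 1.56 CPM in OCIAML3. The same averages in MOLM13 were 65.5 and 90.3 CPM for HECA and 118 and 147 CPM for CORO1C. They were 0.0141 and 1.35 CPM for AC119428.2 and 0.0991 and 0.197 CPM for AC087672.2. A high r thus does not mean a rise of like size. Of the family, GIMAP1 had rank 33 (r = 0.701), and GIMAP6 (0.508), GIMAP8 (0.322), GIMAP2 (0.153) and GIMAP5 (0.105) ran less like GIMAP4. Among the neighbours, AOC1 was most like it (0.69). Over the 16 groups of MOLM13 and MV411 alone, LY96 (r = 0.977) and AC119428.2 (0.973) ranked 1 and 2, while CORO1C (0.754) had rank 263, HECA (0.73) rank 349, AC087672.2 (0.624) rank 931 and GIMAP1 (0.024) rank 11948.

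Markers of blood cells were summed per library to check the labelled cell type. The 8 myeloid markers summed to 446 to 12900 CPM over all libraries, with none at 0 in any line. The 8 T cell markers, from the lineage in which GIMAP genes are best known, summed to 0.297 to 0.944 CPM in OCIAML3, 0.341 to 1.23 in MV411, 1.03 to 3.12 in THP1, 1.35 to 4.06 in Kasumi1, 0.702 to 7.84 in HL60 and 7.48 to 31 in MOLM13. CD3D, CD3G, CD2 and LCK were at 0 in every OCIAML3 library, CD3G in Kasumi1 and CD2 in MOLM13. The 6 B cell markers summed to 1.08 to 105 CPM, highest in HL60, the 6 natural killer cell markers to 0.313 to 60.6 CPM and the 6 endothelial markers to 0.279 to 383 CPM, highest in Kasumi1. The part of these markers in the members' values was not tested.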

How the data were processed

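Libraries were stranded, from total RNA (TruSeq Stranded Total RNA), and read from both ends, per the labels' protocols. The authors deposited 1 table of whole-number read counts per gene, made with Trimmomatic 0.36, STAR 2.4.2a and HTSeq 0.6.0 on GRCh38, per the submitters' processing notes. Annotation release and strand setting are not given in the sources used here. Rows were matched by Ensembl identifier to GENCODE 29 (56994 of 60552), and no sample column was left unused.

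The members and all lists were chosen with earlier results of these data known. The counts went into edgeR 4.0.16 (R 4.3.3), whose quasi-likelihood test was run after TMM normalisation and filterByExpr (minimum count 10, prior count 2), adjusted by Benjamini and Hochberg over all genes of a comparison and called under 0.05. Adjusted p-values are from this test except where DESeq2 is named. Within a line, 16 libraries entered a fit of 8 groups with 8 residual degrees of freedom. Across lines, the 2 replicates of a group were added up, and the fit took the 24 sums of that day with the line as a block. Differences between lines were F tests over the 48 libraries of a day, and untreated lines were compared over the 12 DMSO libraries of day 2. Standard errors are the fold change divided by the root of F. No 2 replicates agreed within sampling noise (smallest chi-square per degree of freedom 8.781). The text names the members that were called, up to 4 genes of another list per comparison by smallest p, and the 5 genes most like GIMAP4. Alternatives were DESeq2 1.42.0, DESeq2's size factors (RLE), no filter, GC and length offsets, a replicate block, and leaving out each library or line. The scripts were tested on simulated data. Sequences are from RefSeq (GRCh38.p14).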

Additional observations from a re-analysis of the deposited data

Results flagged for a closer look

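Differences between the 6 lines in the response to a drug were found for several members by F tests over lines of the treatment effect (edgeR's quasi-likelihood test, Benjamini-Hochberg adjustment over all genes). With ATRA against DMSO at day 4 the adjusted p was 1.94e-07 for GIMAP8, 3.32e-07 for GIMAP6, 9.32e-06 for GIMAP2 and 0.0265 for GIMAP1. The GIMAP2 difference did not pass without HL60 (0.221), and the GIMAP1 difference did not pass without HL60 (0.299), without MV411 (0.116) or with no filter on low counts (0.125).

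For Combo against ATRA at day 4 the adjusted p was 1.57e-07 for GIMAP8, 2.9e-05 for GIMAP4, 8.27e-05 for GIMAP1, 0.000435 for GIMAP2 and 0.0348 for GIMAP6. The GIMAP6 difference did not pass without THP1 (0.941) or with no filter (0.118). For 552A against DMSO at day 2 the adjusted p was 0.00205 for GIMAP4 and 0.00638 for GIMAP8. The GIMAP4 difference did not pass without HL60 (0.39) or THP1 (0.121), and the GIMAP8 difference did not pass without Kasumi1 (0.643) or OCIAML3 (0.0572).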

How the results depend on the processing

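Counts of members called within lines moved by over 1.5 times in 2 comparisons. Combo against ATRA at day 2 had 15 calls with GC and length offsets, and 15 with these offsets and the replicate block together, against 9. DMSO at day 4 against day 2 had 1 with block and offsets together, against 0. DESeq2 called 1 member across lines for ATRA at day 2, against 0. Leaving out each library gave 7 to 11 calls for 552A at day 2, 6 to 8 and 9 to 14 for ATRA at days 2 and 4, 7 to 11 and 12 to 15 for Combo against ATRA, 6 to 8 at each day for Combo against 552A, 0 for time in DMSO and 6 for untreated lines. Leaving out each line gave 0 to 1 call across lines for ATRA and for Combo against ATRA at day 4, and left 1 for both day 2 comparisons with a call. Line differences for 552A at day 2 numbered 3 with RLE factors, no filter, GC and length offsets, the replicate block or DESeq2, against 2 (GIMAP1 adjusted p = 0.0505). Leaving out each line gave 1 to 2 for 552A at day 2, 2 to 4 for ATRA at day 4 and 4 to 5 for Combo against ATRA at day 4. Of 1088 values of a called member within a line with 1 library left out, 962 kept their call, 126 lost it and none reversed. Without a filter 10 of 68 were lost, and the causes of these changes were not tested.

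Same-numbered replicates showed no consistent pairing. The correlation of their deviations between groups of a line ran from -0.879 to 0.949, and 12 to 21 of 28 pairs of groups per line were over 0.1. With the replicate block the calls within lines were 11 for 552A at day 2, 9 and 13 for ATRA, 10 and 15 for Combo against ATRA, 8 and 9 for Combo against 552A and 0 for time in DMSO. Across lines the block was fitted to unsummed libraries, which then count as replicates, and gave 2 calls for 552A at day 2 (against 1), 4 for ATRA at day 2 (against 0), 4 at day 4 (against 1) and 2 for Combo against ATRA at day 2 (against 1). Low counts limit GIMAP4 in OCIAML3, GIMAP5 in HL60 and GIMAP7 in all lines.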
